A study of Mus musculus with 4 samples.

Results

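DNA methyltransferases add methyl groups to cytosines in CpG dinucleotides, and the TET enzymes begin their removal. The genes described here were Dnmt1, Uhrf1, Dnmt3a, Dnmt3b, Dnmt3l, Tet1, Tet2 and Tet3, taken by symbol from a table of gene counts. These were 8 of the 55421 genes in the table, and all 8 were among the 20232 genes with enough counts to be tested. RNA was sequenced from primary cultures of spermatogonia (spermatogonial stem cell or SSC culture) from testes of neonatal CD1 mice, kept in medium with N2 supplement, bFGF and GDNF on mitotically arrested mouse embryonic fibroblast (MEF) feeder cells. Veh cultures stayed in complete SSC medium, and NRRA cultures received a nutrient restriction medium, in which Earle's salt solution replaced most of the complete medium, together with retinoic acid (RA), for 2 days. There were 2 libraries in each group, and neither group carried an engineered allele. The study describes the replicates of its sequencing experiments in general as biologically independent, while the labels of these libraries do not name a culture or mouse for each. The p-values measure the spread between these libraries. The comparison addresses how NRRA, which the study uses to start meiosis in culture, changed gene expression in the CD1 background.

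In a dividing cell, DNMT1 copies methylation onto the new DNA strand, and UHRF1 recognises hemimethylated CpG sites and brings DNMT1 to them. DNMT3A and DNMT3B set new methylation, and DNMT3L, which has no catalytic activity, stimulates them and is needed for methylation in male germ cells. TET1, TET2 and TET3 oxidise methylated cytosine, after which the oxidised base is excised and repaired or lost through replication. In the male germ line, methylation is set before birth in prospermatogonia and is copied through the divisions of spermatogonia, while a transient fall during replication has been described in cells entering meiosis.

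The libraries held between 28022265 and 31604769 counts, and 3 counts, used as the floor, equalled 0.0921 to 0.111 CPM (counts scaled to a common library size). PCR duplicates could not be distinguished, so this floor holds for counting error alone, while the intervals of the edgeR fit given below include the spread between libraries. All 12 germ cell markers were detected in both groups. In NRRA 4 were higher (Dazl, Kit, Sall4 and Stra8), 7 were lower (Dnd1, Etv5, Gfra1, Id4, Mael, Tdrd1 and Zbtb16), and library size scaling gave 5 on each side. Dnd1 kept its call in 5 of 13 alternatives and Dazl in 10. The changes ran from -3.32 for Id4 to 7.56 for Stra8 on the log2 scale. Ddx4, an RNA helicase of germ cells, did not pass the test and stood at 270 ± 3.74 CPM (SD, n = 2) in Veh and at 275 ± 5.34 CPM (SD, n = 2) in NRRA. Stra8, the RA-induced gene of meiotic entry, was at 9.62 and 10.1 CPM in Veh and at 1864 and 1853 CPM in NRRA. Feeder markers were present in every library, and none of the 18 was at 0. Together they took between 0.942% and 0.955% of the counts in Veh and between 0.760% and 0.777% in NRRA. Of the 18, 14 were lower and 3 were higher (Col3a1, Fap and Pdgfra). With library size scaling 11 were lower and 3 higher. Fap had the largest rise, 3.73 on the log2 scale. Sertoli markers took at most 0.00409% of the counts in a library, with Fshr at 0 in all 4, and Leydig and macrophage markers each took at most 0.00472%.

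Of the 8 genes, 3 were higher in NRRA (Dnmt1, Dnmt3b and Tet3), 4 were lower (Uhrf1, Dnmt3a, Dnmt3l and Tet1), and Tet2 did not pass the test. A gene was called at an edgeR adjusted p under 0.05 over all genes tested. The background was high, since 27.9% of the tested genes were called higher and 28.4% lower, or 56.4% in all. When libraries were scaled by their totals alone, the calls over all genes shifted from 49.6% to 60.3% in the higher direction, and the 3 higher and 4 lower genes of the family stayed on their sides. Dnmt3l and Tet1 fell by at least 2-fold, as did 7.02% of the tested genes, and no gene of the family rose by that much, against 6.29% of all genes. The libraries of the groups did not overlap for 7 of the 8 genes, against 76.7% of the tested genes. In these bulk libraries, fewer cells of a type and less RNA per cell cannot be told apart. Levels of these genes in MEF feeder cells were not measured separately, and the part of the lower feeder share in the changes was not tested.

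**Figure D1:**
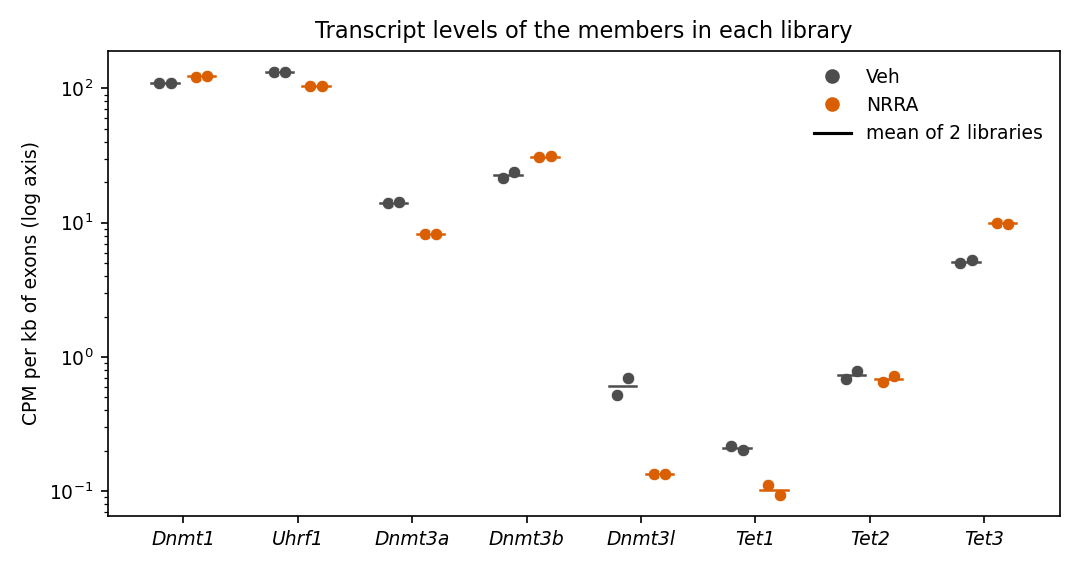
Transcript level of each gene in each of the 4 libraries, in CPM per kilobase of annotated exon on a log axis, with Veh in grey, NRRA in orange and a line at the mean of 2 libraries. Dnmt1 and Uhrf1 lie near 100 CPM per kb and change rank between the groups, Tet1 lies lowest in both groups, and only the Tet2 libraries overlap between Veh and NRRA.

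Levels were compared between genes per kilobase of exon. In Veh the order was Uhrf1 at 133 ± 0.566, Dnmt1 at 109 ± 0.0301, Dnmt3b at 22.8 ± 1.73, Dnmt3a at 14.1 ± 0.150 and Tet3 at 5.12 ± 0.185 CPM per kb (SD, n = 2). Tet2 followed at 0.740 ± 0.0724, Dnmt3l at 0.608 ± 0.127 and Tet1 at 0.210 ± 0.0105 CPM per kb. The libraries of each neighbour in this order were separate, except for Tet2 and Dnmt3l, whose levels overlapped.

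In NRRA the order changed in 2 places. Dnmt1, at 123 ± 1.61 CPM per kb, passed Uhrf1, at 104 ± 0.195 CPM per kb. Part of the Uhrf1 transcript is near-identical to a pseudogene. Reads there may have been left out, so the rank of Uhrf1 beside Dnmt1 is uncertain. Tet3, at 9.93 ± 0.151 CPM per kb, passed Dnmt3a, at 8.23 ± 0.0792 CPM per kb, while Dnmt3b stayed next in order at 31.0 ± 0.419 CPM per kb. The 3 lowest genes kept their order, with Tet2 at 0.686 ± 0.0462, Dnmt3l at 0.133 ± 0.000131 and Tet1 at 0.103 ± 0.0118 CPM per kb. Here the libraries of all neighbours were separate. Dnmt3l had 13 and 12 counts in NRRA, so its SD understates the counting error, and its place above Tet1 is uncertain. The ranks were the same when the longest transcript was used as the length. Among the tested genes, the Veh levels per kb of Uhrf1 and Dnmt1 stood at percentiles 99.0 and 98.7, and that of Tet1 at percentile 8.09.

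The maintenance genes moved in opposite directions. Dnmt1, which copies methylation after replication, was counted 21907 and 24024 times in Veh, against 29237 and 27532 times in NRRA, or 808 and 807 against 898 and 915 CPM. Both NRRA libraries lay above both Veh libraries. The mean rose by 12.2%, or 0.17 on the log2 scale (SE 0.022, 95% interval 0.12 to 0.21, edgeR adjusted p = 3.40e-07). The change was small beside those of other genes, since 28.2% of the tested genes had a smaller absolute change. Dnmt1 (ENSMUSG00000004099) lies on the minus strand at chr9:20907209-20959888 in GRCm38.

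Uhrf1, the reader of hemimethylated DNA that recruits DNMT1, was counted 15356 and 16745 times in Veh, against 14430 and 13374 times in NRRA. These corresponded to 566 and 563 CPM in Veh against 443 and 444 CPM in NRRA, and the NRRA libraries were the lower ones without overlap. Uhrf1 fell to a log2 fold change of -0.35 (SE 0.024, 95% interval -0.40 to -0.30, edgeR adjusted p = 1.74e-12), or 1.27-fold lower. Uhrf1 (ENSMUSG00000001228) lies on the plus strand at chr17:56303321-56323486. A stretch of 44.3% of its longest transcript is near-identical to the pseudogene Gm5648, which held between 23 and 52 counts in a library. Reads of that stretch could have been assigned to either gene or left out.

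Within each library, the ratio of Dnmt1 to Uhrf1 does not depend on the scaling between libraries. Per kb it was 0.824 and 0.828 in Veh and 1.17 and 1.19 in NRRA, so that Uhrf1 was the higher of the pair in Veh and Dnmt1 in NRRA. The ratio differed by 0.51 on the log2 scale, a difference far above the spread within either group. With 2 libraries against 2, an exact two-sided permutation test cannot go below p = 0.333, which was the value here. Which gene was the higher within a library depends on the length used for each. By counts without division by length Dnmt1 exceeded Uhrf1 in every library. The ratios were then 1.43 in both Veh libraries and 2.03 and 2.06 in NRRA. Which was higher depends also on reads of the 44.3% of the longest Uhrf1 transcript near-identical to Gm5648, which may have been left out.

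The sequence before the annotated starts of Dnmt1 and Uhrf1 is shown because both are genes of dividing cells, in which E2F factors act. RefSeq (GRCm38.p6) gives 15 windows of 250 bases before a start for the 8 genes, and 32851 for all genes. The motif TTTNNCGC, an E2F site, was searched on both strands and stood in 4.28% of all windows. It occurred before 1 of the 3 Dnmt1 starts and before both Uhrf1 starts. For Dnmt1 only 30 bases are given (minus strand, chr9:20952823-20952852), since the rest of the window lies largely in an annotated exon, and the capitals mark 2 overlapping matches on the opposite strand, between 219 and 210 bases before the start at 20952623. For Uhrf1 (plus strand, chr17:56304063-56304312, inside the gene) the capitals mark an E2F match 185 bases before the start at 56304313 and AGGTCA, a motif of RA receptors, 162 bases before it.
Dnmt1: gtttccgcgcGCGCGAAAAAgccggggtct
Uhrf1: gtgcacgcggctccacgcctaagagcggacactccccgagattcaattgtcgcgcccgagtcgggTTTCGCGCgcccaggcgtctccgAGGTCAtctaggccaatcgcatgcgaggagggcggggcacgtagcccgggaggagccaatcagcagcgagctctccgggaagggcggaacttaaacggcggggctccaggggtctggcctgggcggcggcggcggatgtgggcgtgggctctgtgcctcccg
The AGGTCA motif stood in 14% of all windows, on either strand. The matches are descriptions of the letters.

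The genes of de novo methylation also diverged. Dnmt3a was counted 6312 and 7030 times in Veh, against 4431 and 4152 times in NRRA, or 233 and 236 CPM against 136 and 138 CPM. The Veh libraries were the higher ones, and the gap between groups was far wider than that within them. Dnmt3a changed by -0.78 on the log2 scale (SE 0.031, 95% interval -0.84 to -0.71, edgeR adjusted p = 1.78e-17), or 1.71-fold lower. Dnmt3a (ENSMUSG00000020661, chr12:3806007-3914443, plus strand) shares 0.799% of its exonic bases with Dnmt3aos on the opposite strand, which had at most 4 counts in a library. Several transcripts of Dnmt3a start at different sites and encode a long and a short protein, and gene counts do not tell them apart.

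Dnmt3b, the other catalytic de novo enzyme, moved the other way. It was counted 2988 and 3649 times in Veh, against 5104 and 4809 times in NRRA, or 110 and 123 CPM against 157 and 160 CPM. Both NRRA libraries were above both Veh libraries, and the Veh libraries were farther from each other than the NRRA libraries were. Its rise was 0.44 on the log2 scale (SE 0.040, 95% interval 0.36 to 0.52, edgeR adjusted p = 3.96e-10), or 1.36-fold higher. Dnmt3b (ENSMUSG00000027478) lies on the plus strand at chr2:153649450-153687730. Its tandem copy Dnmt3c, which methylates the promoters of young retrotransposons in male germ cells, was counted 0 and 3 times in Veh, against 2 and 7 times in NRRA and was not tested.

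Dnmt3a therefore made up a smaller share of the catalytic pair after NRRA. Per kb, Dnmt3a made up 39.3% and 37.2% of the summed level of Dnmt3a and Dnmt3b in Veh and 21.0% and 20.9% in NRRA. The means were 38.2% ± 1.54 and 21.0% ± 0.0645 (SD, n = 2), with no overlap and an exact two-sided permutation p of 0.333, the smallest that this design allows. The level of the share depends on the length used, and by counts without division by length the means were 66.9% and 46.4%. By that measure Dnmt3a was the larger of the pair in Veh and the smaller in NRRA, while per kb it was the smaller in both. The summed level of the pair differed less, at 36.9 ± 1.88 CPM per kb in Veh and 39.2 ± 0.498 CPM per kb in NRRA. The ratio was 1.06 (exact permutation p = 0.333). The direction of this sum depends on the length used. By mean CPM without length, Dnmt3a fell from 234 to 137, by more than Dnmt3b rose, from 116 to 158.

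Dnmt3l, the cofactor without catalytic activity, fell most of the 8 genes and was also among the least counted. It was counted 42 and 62 times in Veh, against 13 and 12 times in NRRA, or 1.55 and 2.08 CPM against 0.399 CPM in both NRRA libraries. All libraries were above the floor of 3 counts, and the groups did not overlap. The log2 fold change was -2.18 (SE 0.36, 95% interval -2.92 to -1.44, edgeR adjusted p = 9.69e-06), or 4.53-fold lower, and the wide interval goes with the low counts. Only 2.07% of the tested genes had a lower log2 fold change. Dnmt3l (ENSMUSG00000000730, chr10:78041947-78063622, plus strand) shares 2.24% of its exonic bases with Aire on the opposite strand, which had 0 counts in every library.

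The windows before de novo genes are shown because Dnmt3a and Dnmt3b moved apart and Dnmt3l fell most. Capitals in Dnmt3a (chr12:3891494-3891727, plus strand, before a start inside the gene at 3891744) mark TGACCT, which is AGGTCA on the opposite strand, 76 bases before that start. The other 2 Dnmt3a windows and the Dnmt3b window (chr2:153649199-153649448, plus strand) held none of the motifs searched. Capitals in Dnmt3l (chr10:78049592-78049841, plus strand, inside the gene) mark matches to CNCCTCAG, a motif of STRA8, 157 and 88 bases before the start at 78049842.
Dnmt3a: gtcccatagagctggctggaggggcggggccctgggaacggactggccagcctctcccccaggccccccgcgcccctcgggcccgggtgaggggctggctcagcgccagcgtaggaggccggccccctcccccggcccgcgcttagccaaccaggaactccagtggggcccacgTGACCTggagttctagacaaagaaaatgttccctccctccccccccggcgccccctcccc
Dnmt3b: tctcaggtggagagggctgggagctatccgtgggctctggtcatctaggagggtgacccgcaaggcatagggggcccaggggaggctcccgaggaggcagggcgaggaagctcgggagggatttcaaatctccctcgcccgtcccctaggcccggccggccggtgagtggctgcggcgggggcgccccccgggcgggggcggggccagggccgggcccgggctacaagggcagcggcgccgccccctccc
Dnmt3l: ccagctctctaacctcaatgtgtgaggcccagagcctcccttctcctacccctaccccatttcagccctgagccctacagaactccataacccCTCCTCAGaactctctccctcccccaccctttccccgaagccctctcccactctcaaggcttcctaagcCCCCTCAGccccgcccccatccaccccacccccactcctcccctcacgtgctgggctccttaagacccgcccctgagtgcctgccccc
The STRA8 motif, searched on both strands, stood in 6.42% of all windows. The Dnmt3l windows before the starts at 78042287 and 78055335 held none of the motifs searched. CpG dinucleotides numbered 15 in the full window of this Dnmt3a start, 38 and 40 at the other Dnmt3a starts and 21 at Dnmt3b, but between 3 and 5 in the 3 Dnmt3l windows, beside a median of 6 over all windows. The Dnmt3l windows were thus at or below the common CpG density, while those of Dnmt3a and Dnmt3b were above it. Among the Tet genes, the Tet1 window held TGACCT 44 bases before its start, and those of Tet2 and Tet3, with 51 and 17 CpG dinucleotides, held none of the motifs.

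**Figure D2:**
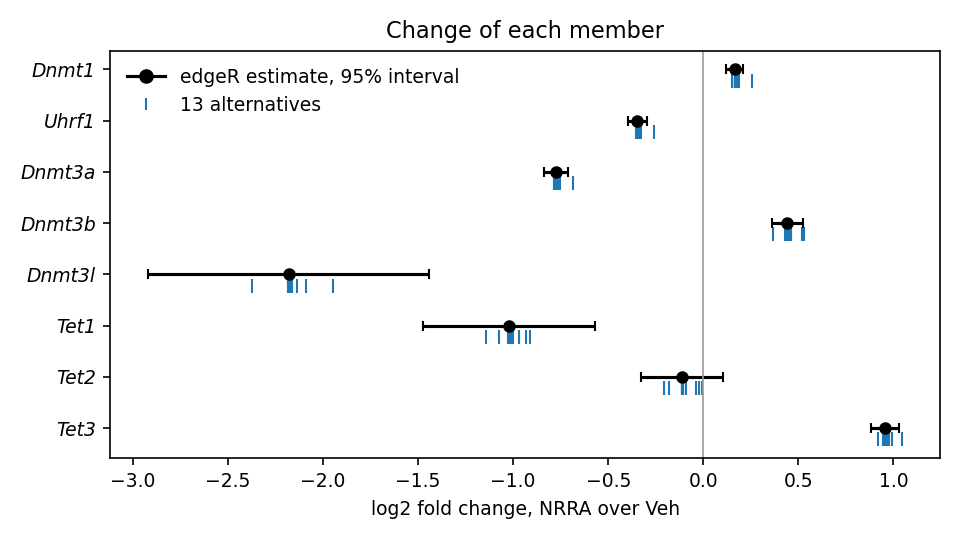
Log2 fold change of each gene, NRRA over Veh, with the edgeR estimate as a point and its 95% interval as a bar, and ticks for 13 alternative analyses. The intervals of 7 genes exclude 0, that of Tet2 spans it, and those of Dnmt3l and Tet1 are the widest.

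The 3 Tet genes behaved differently from each other. Tet3, the TET enzyme of oocytes and zygotes that is also expressed in many other tissues, was counted 2258 and 2607 times in Veh, against 5456 and 4936 times in NRRA. In CPM these were 83.3 and 87.6 against 168 and 164, with both NRRA libraries well above both Veh libraries. The log2 fold change was 0.96 (SE 0.037, 95% interval 0.88 to 1.03, edgeR adjusted p = 1.01e-17), or 1.94-fold higher. It was the largest rise of the 8 genes, and 92.8% of the tested genes had a lower log2 fold change. Tet3 (ENSMUSG00000034832) lies on the minus strand at chr6:83362373-83459084.

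Tet1, known from embryonic stem cells and primordial germ cells, was counted rarely. It was counted 91 and 93 times in Veh, against 56 and 44 times in NRRA, or 3.36 and 3.13 CPM against 1.72 and 1.46 CPM. The groups did not overlap. On the log2 scale the change was -1.02 (SE 0.22, 95% interval -1.47 to -0.57, edgeR adjusted p = 0.000284), or 2.03-fold lower. The change was under 2-fold in 3 of 13 alternatives, at -0.91 without NRRA replicate 2, -0.97 without Veh replicate 1 and -0.93 with library size scaling. Tet1 (ENSMUSG00000047146) lies on the minus strand at chr10:62804570-62908996.

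Tet2, the TET enzyme best known from blood cells, was counted 315 and 397 times in Veh, against 359 and 365 times in NRRA. The CPM values were 11.6 and 13.3 in Veh and 11.0 and 12.1 in NRRA, and the groups overlapped. The log2 fold change was -0.11 (SE 0.11, edgeR adjusted p = 0.383). Its 95% interval ran from -0.33 to 0.10, or from 0.796-fold to 1.07-fold. Tet2 (ENSMUSG00000040943) lies on the minus strand at chr3:133463679-133545139.

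Tet3 was the main Tet transcript in both groups, and its share was higher in NRRA. Per kb it made up 84.6% and 84.1% of the summed Tet level in Veh and 92.9% and 92.4% in NRRA. Tet2 made up 11.7% and 12.7% in Veh and 6.05% and 6.76% in NRRA, although the test of its own level did not pass. Tet1 made up 3.68% and 3.24% in Veh and 1.03% and 0.889% in NRRA. None of these shares overlapped between the groups, each with an exact two-sided permutation p of 0.333, the smallest possible here. The summed Tet level was 6.07 ± 0.247 CPM per kb in Veh and 10.7 ± 0.117 CPM per kb in NRRA, a ratio of 1.77 (exact permutation p = 0.333).

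**Figure D3:**
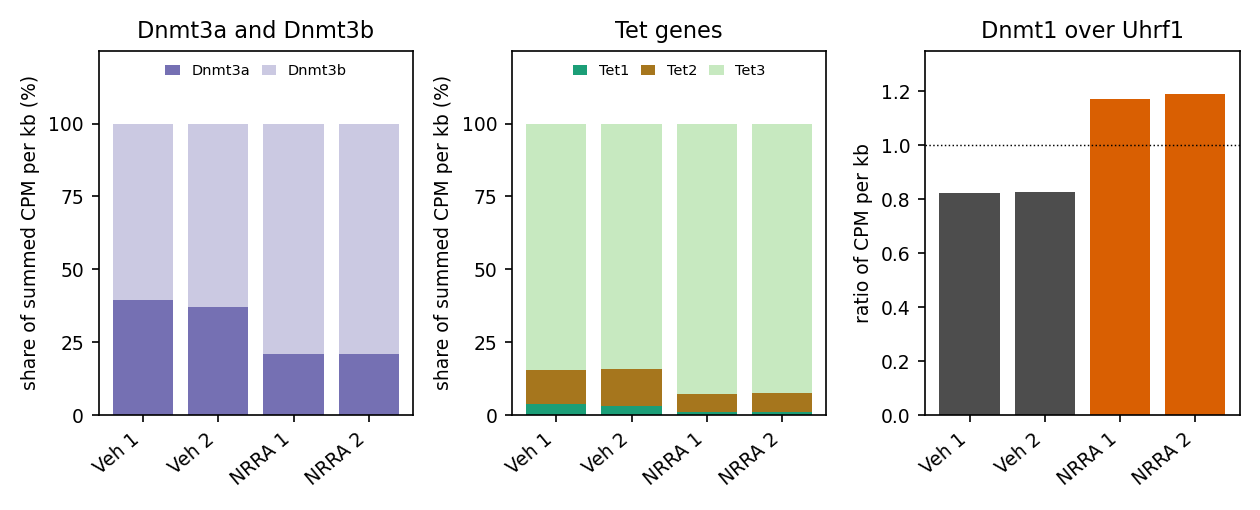
Share of Dnmt3a and Dnmt3b in their summed CPM per kb, share of the 3 Tet genes in theirs, and ratio of Dnmt1 to Uhrf1 per kb, with 1 bar for each library. Dnmt3a takes 37.2% and more in Veh and 21.0% and less in NRRA, Tet3 fills most of the Tet bars, and the ratio crosses the dotted line at 1 from Veh to NRRA.

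The closest relatives of these genes were also counted. Trdmt1 (Dnmt2), which methylates transfer RNA, was counted 140 and 157 times in Veh, against 256 and 252 times in NRRA, and its libraries did not overlap. It rose by 0.64 on the log2 scale (SE 0.13), with an edgeR adjusted p of 0.000217. Uhrf2, the paralog of Uhrf1, had 111 and 106 CPM in Veh and 99.0 CPM in both NRRA libraries, a change of -0.13 on the log2 scale (SE 0.038) with an edgeR adjusted p of 0.00495. The Uhrf2 call was lost in 3 of 13 alternatives, namely library size scaling, DESeq2 and the fit without Veh replicate 1.

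The tested genes whose log2 CPM in the 4 libraries lay nearest to Tet3, by Euclidean distance, were Tmem59l at a distance of 0.116, Ddhd2 at 0.196 and Iqsec1 at 0.206. Nearest to Dnmt3l were Gm28809 at 0.305, Cck at 0.326 and Gm26995 at 0.342. Likeness over 4 libraries in 2 groups means a like level and a like difference between the groups.

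Partners of maintenance methylation showed changes in both directions. Of 12 tested, 4 were higher (Hdac1, Hdac2, Hells and Usp7) and 7 were lower (Cdca7, Dppa3, Ehmt2, Pcna, Trim28, Uhrf2 and Zfp57). Lig1 did not pass the test. Over all tested genes 27.9% were called higher and 28.4% lower. The median log2 fold change was -0.092, beside 0.00029 over all tested genes, and with library size scaling the median was -0.0023, with 5 higher and 4 lower. Ehmt2 lost its call in 5 of 13 alternatives and turned to 0.020 with library size scaling, and Pcna lost its call in 4. Of the longest transcripts of Hdac1 and Pcna, 71.1% and 51.4% are near-identical to other genes. Hdac2, a histone deacetylase found with DNMT1, had the highest value, 0.20 (SE 0.029, edgeR adjusted p = 1.70e-06). Dppa3, which shields DNA from UHRF1 and maintenance methylation in oocytes and the early embryo, had the lowest. It was counted 230 and 244 times in Veh, against 4 and 0 times in NRRA (edgeR adjusted p = 3.26e-15), and the NRRA counts are too few for a fold with meaning. Of its longest transcript, 54.1% is near-identical to the copies Dppa3-ps and Gm15620, so its own counts are uncertain.

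Partners of de novo methylation and of the piRNA pathway, which guides it to retrotransposons in fetal germ cells, split evenly. Of 15 tested, 6 were higher (Mov10l1, Nsd2, Piwil2, Setd2, Tdrd9 and Tex15) and 6 were lower (Ctcfl, Kdm1b, Mael, Morc1, Piwil4 and Spocd1). These stand beside 27.9% higher and 28.4% lower of all tested genes. The median log2 fold change was 0.037. With library size scaling 9 were higher and 5 lower. Setd2 lost its call in 4 of 13 alternatives, and Mael with library size scaling alone. Tex15, at 200 and 196 CPM in Veh and 314 and 309 CPM in NRRA, had the highest value, 0.66 (SE 0.028, edgeR adjusted p = 1.15e-16). Spocd1, at 6.97 and 6.55 CPM in Veh and 1.50 and 1.16 CPM in NRRA, had the lowest, -2.33 (SE 0.19, edgeR adjusted p = 6.11e-11). Both act with the nuclear PIWI protein in piRNA-directed methylation in fetal testes, and their transcripts moved in opposite directions.

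Partners of demethylation were tested where they passed the filter on low counts, as 14 of 16 did. Of these, 4 were higher (Gadd45a, Gadd45b, Gadd45g and Mbd4) and 7 were lower (Apex1, Cxxc4, Cxxc5, Neil2, Ogt, Sin3a and Tdg). The shares over all tested genes were 27.9% higher and 28.4% lower. The median log2 fold change of the partners was -0.20. Library size scaling gave 5 higher, 4 lower and a median of -0.11. Neil2 lost its call in 5 of 13 alternatives, Tdg in 3 and Sin3a in 2. Tdg is uncertain, since 95.2% of its longest transcript is near-identical to other genes. Gadd45b, a stress-responsive gene tied to DNA repair and demethylation, was counted 187 and 210 times in Veh and 497 times in both NRRA libraries. Its rise of 1.19 on the log2 scale (SE 0.11, edgeR adjusted p = 3.76e-10) was the highest, and all 3 Gadd45 genes were on the higher side. Apex1, the endonuclease that follows base excision, had the lowest value, -0.86 (SE 0.035, edgeR adjusted p = 3.88e-17). Of its exonic bases, 61.7% lie opposite exons of Pip4p1, so that this value is uncertain where counting ignored strand.

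Of 9 readers of methylated CpG tested, 2 were higher (Mbd2 and Mbd4), 2 were lower (Zbtb4 and Uhrf2) and 5 were not called, beside 56.4% called of all tested genes. The median log2 fold change of the readers was 0.015. It was 0.045 without Veh replicate 1 and 0.10 with library size scaling. Mbd2 was the highest, at 0.32 (SE 0.049, edgeR adjusted p = 2.59e-06), and Zbtb4 the lowest, at -0.51 (SE 0.058, edgeR adjusted p = 2.92e-08). With library size scaling 4 were higher and 1 was lower.

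S phase genes give the setting for Dnmt1 and Uhrf1, whose transcripts are highest in replicating cells. Of 20 tested, 8 were higher and 9 lower, beside 27.9% and 28.4% of all tested genes. The median log2 fold change was -0.069. It turned to 0.021 with library size scaling, where 9 were higher and 6 lower. DESeq2 called 6 in each direction. Large parts of the exonic bases of Fen1 (84.2%), Gins2 (67.3%) and Chaf1a (52.5%) lie opposite exons of other genes. Of the longest Mcm7 transcript, 81.2% is near-identical to other genes. Ccne2, a cyclin of S phase entry, was the highest, at 0.61 (SE 0.064, edgeR adjusted p = 7.36e-09), and 17.4% of its exonic bases lie opposite exons of Ints8. Chaf1b, a subunit of the chromatin assembly factor that works at the replication fork, was the lowest, at -1.01 (SE 0.061, edgeR adjusted p = 1.61e-13).

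**Figure D4:**
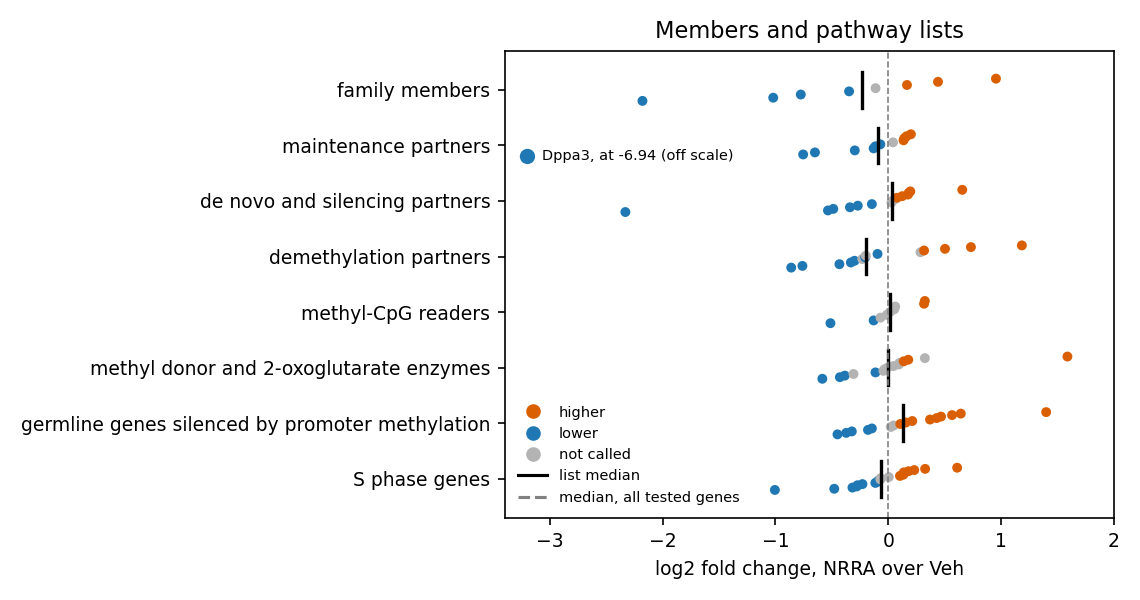
Log2 fold change, NRRA over Veh, of each tested gene in 8 lists, in orange where called higher, blue where called lower and grey where not called, with a bar at the list median and a dashed line at the median of all tested genes. The 8 family genes spread from -2.18 to 0.96 around a median of -0.23, and the other lists hold genes on both sides of 0. Dppa3 is drawn at the edge, and its fitted value depends on the prior count.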

How the data were processed

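RNA-seq of 2 Veh and 2 NRRA libraries was analysed, and groups and replicate numbers were taken from the sample titles. The deposited table held raw counts per gene, as whole numbers without normalization. Per the labels, the authors' processing notes name bcl2fastq, STAR 2.6.1c, featureCounts 1.6.4 and the build mm10. The strand setting and annotation release were not given in the sources used here, so reads of overlapping or near-identical genes may be assigned either way. The labels name a TruSeq kit and the study's methods a stranded oligo-dT kit. The methods describe DESeq2 for differential expression.

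Counts were filtered with filterByExpr, scaled with TMM and tested with the quasi-likelihood F test of edgeR 4.0.16 in R 4.3.3 (robust), with Benjamini-Hochberg adjustment over all genes tested. DESeq2 1.42.0 and limma 3.58.1 (voom) were alternatives, because the quasi-likelihood test allows for an uncertain dispersion in groups this small. The script was tested on simulated counts. CPM used TMM-adjusted totals, and log2 CPM a prior count of 2. Lengths and coordinates came from GENCODE M21 (GRCm38), which held 99.7% of the gene identifiers, and promoter windows from RefSeq (GRCm38.p6).

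The members, the lists and the rule for named genes were chosen with earlier results of these data known. The rule named all members, their closest relatives, Stra8, the highest and lowest gene of each pathway list and any in it called at 2-fold or more (marker lists were outside the rule), and the 3 genes nearest to the members with the largest rise and fall. Id4, Ddx4 and the other genes that make up a count were named after their values were seen. The lowest gene of the methyl donor list is not reported here. No p-value was computed for a list.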

Additional observations from a re-analysis of the deposited data

How the results depend on the processing

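Across 13 alternatives, all 104 log2 fold changes of the 8 genes stayed on the same side of 0 and of the threshold, with 3 genes higher and 4 lower each time. The alternatives were 3 other scalings, 2 other filters on low counts, a fit without robust estimation, DESeq2, limma-voom, a replicate block, and leaving out each library. Over these, the log2 fold change ran from 0.15 to 0.26 for Dnmt1, from -0.35 to -0.26 for Uhrf1, from -0.79 to -0.69 for Dnmt3a and from 0.37 to 0.53 for Dnmt3b. It ran from -2.37 to -1.95 for Dnmt3l, from -1.14 to -0.91 for Tet1, from -0.21 to -0.0083 for Tet2 and from 0.92 to 1.05 for Tet3, which passed 2-fold with library size scaling. Over all tested genes, calls ran from 4252 (DESeq2) to 6962 (library size only) higher and from 4314 (DESeq2) to 5836 (replicate block) lower, against 5654 and 5752. DESeq2 used its own filtering on 35355 genes, against 20232, so this setting changes both the test and the genes tested.

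Replicate numbers were those of the titles. The descriptions and columns of the Veh libraries carry the next higher number, so what a shared number would pair is unclear. The labels do not say that a shared number marks a shared culture, so the numbers were not taken as pairs. By title number, the differences between replicates had a correlation of -0.0106 over all tested genes. That value does not test a pairing by the column numbers. With the replicate number as a block, 5772 genes were called higher and 5836 lower, and 3 and 4 of the family. Tet1 and Dnmt3l had under 100 counts in every library, which limits their precision. When a library was left out, its group was represented by 1 library, assumed to vary like the other group.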

Other observations

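Germline genes that promoter methylation is known to silence in somatic cells were examined as a list of 16, all tested. In NRRA 9 were higher and 5 lower, beside 27.9% and 28.4% of all tested genes. The median log2 fold change was 0.13, beside 0.00029 over all tested genes, and it was 0.079 without Veh replicate 1. With library size scaling it was 0.22, beside 0.090 over all tested genes, and 11 were higher and 4 lower. Sycp3, a component of the meiotic chromosome axis, had the highest value. It was at 27.4 CPM in both Veh libraries and at 73.8 and 71.0 CPM in NRRA, a rise of 1.40 on the log2 scale (SE 0.054, edgeR adjusted p = 1.07e-17). Of its exonic bases, 52.2% lie opposite exons of Chpt1. Tdrd1, a piRNA pathway gene, had the lowest value, at 181 and 178 CPM in Veh and 129 and 134 CPM in NRRA, a change of -0.45 on the log2 scale (SE 0.033, edgeR adjusted p = 8.47e-12). DNA methylation was not measured in these libraries.

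Enzymes of the methyl donor cycle and of 2-oxoglutarate metabolism, which supply the substrates of the methyltransferases and the TET enzymes, were tested as a list of 15. In NRRA 3 were higher (Ahcy, Ahcyl2 and Gnmt) and 4 lower, beside 27.9% and 28.4% of all tested genes. Ahcy lost its call in 3 of 13 alternatives, and 81.9% of its longest transcript is near-identical to other genes. The median log2 fold change was -0.0063. It turned to 0.083 with library size scaling, where 6 were higher and 3 lower. Gnmt, which consumes the methyl donor by methylating glycine, was counted 13 and 10 times in Veh, against 42 and 35 times in NRRA, a rise of 1.59 on the log2 scale (SE 0.40, edgeR adjusted p = 0.00142).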
